A study of Mus musculus with 12 samples.

Results

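Notch is a cell-surface signalling pathway, and the 9 genes described here are its 4 receptors (Notch1, Notch2, Notch3 and Notch4), its DNA-binding factor Rbpj, and 4 genes that Notch signalling is known to switch on (Hes1, Hey1, Nrarp and Dtx4). They were taken by symbol from a table of 35275 genes, and all 9 have a row. The list was chosen with earlier results from these same libraries known, and was thus selected from measured values, so the counts of changed members below describe these libraries and are not independent evidence.

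The table holds RNA-seq of hematopoietic stem cells sorted from C57BL/6 mice, in 4 groups of 3 libraries. The wild-type mice were Thpo+/+ and the knockout mice Thpo-/-. Thpo encodes thrombopoietin, the hormone that maintains stem cells and platelet production. In each genotype 1 group was labelled untreated, and the other received Romiplostim, an agonist of the thrombopoietin receptor, for 10 days at 100 μg/kg per day given intravenously. The protocol names PBS as the control, while the sample labels say only untreated. The labels used here give no age, and do not say whether the 3 libraries of a group came from separate mice, so p-values measure only the spread between these samples, which may be technical. The labels give the genotype and not how the Thpo allele was made, and each run of the sequencer held 1 group, as the design text gives it, so group and run cannot be told apart.

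When a ligand of the Delta or Jagged families on a neighbouring cell binds a Notch receptor, the receptor is cut by an ADAM protease and then by gamma-secretase. The released intracellular part enters the nucleus, joins RBPJ and a Mastermind coactivator, and turns on target genes. In blood formation the pathway is best known for directing progenitors to the T lineage and for the emergence of stem cells in the embryo. Levels are given in FPKM, which counts fragments per kilobase of a gene and corrects for the size of the library. They can be set beside each other between genes because they are per length. Differences are given in log2(FPKM + 1), which understates the change of genes at low levels, with the standard error (SE) and a p-value adjusted over all 12823 tested genes by limma with the Benjamini-Hochberg method.

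A gene was tested if it reached at least 1 FPKM in at least 3 of the 12 libraries. Of the members, 6 passed this filter (Notch1, Notch2, Notch4, Rbpj, Hes1 and Nrarp) and 3 did not (Notch3, Hey1 and Dtx4). The depth recovered from the steps between low values was 27.62 to 35.48 M fragments per library, an estimate, since only 41.3% to 52.8% of the values worth under 50 fragments came out whole within 0.05. The genes lie on several chromosomes of the mouse build mm10 (GRCm38) and are all annotated as protein coding: Notch1 at chr2:26457903-26516663 on the minus strand, Nrarp at chr2:25180758-25183339 on the plus strand, Notch2 at chr3:98013527-98150361 on the plus strand and Hey1 at chr3:8663359-8667256 on the minus strand. Rbpj spans chr5:53466152-53657362 on the plus strand, Hes1 chr16:30064384-30067796 on the plus strand, and Dtx4 chr19:12466338-12501454 on the minus strand. On chromosome 17, Notch3 occupies chr17:32120820-32166852 on the minus strand and Notch4 chr17:34564268-34588503 on the plus strand.

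Stem cell markers were detected in all 12 libraries, and markers of other cell types differed between the groups. The summed level of 12 stem cell markers such as Procr and Mecom was 1901 to 2497 FPKM in untreated wild type, against 584.2 to 791.3 in the knockout without drug. The 12 B-lineage markers such as Cd79a and Cd79b summed to 88.31 to 98.67 FPKM in untreated wild type against 1837 to 4362 in the untreated knockout, and 10 macrophage markers such as C1qa to 52.43 to 70.93 against 986.1 to 2858. In treated wild type the same B-lineage and macrophage sums were 67.65 to 70.75 and 18.59 to 28.07 FPKM, with Pax5 and Marco at 0 in all 3 libraries, and in treated knockout 99.55 to 674.3 and 90.98 to 126.6. In sorted bulk samples, fewer cells of a type and less RNA per cell cannot be told apart, and the part of these other cells in the results below was not tested. The mean of 4 Y-linked genes was 11.3 to 24.9 FPKM in the 3 untreated knockout libraries and 0.00537 to 0.0389 in the 3 treated ones, so the sex of the mice moved with treatment in the knockout. It was mixed in both wild-type groups: near 0 in untreated replicate 2 (0.137) and treated replicate 1 (0.0221), and 18.5 to 23.2 FPKM in the others. Sex thus also differed between genotypes, with and without the drug, and entered the interaction. The sex covariate used in alternatives below draws on the wild-type groups alone, as sex did not vary within a knockout group. In the knockout it cannot separate sex from the drug.

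RefSeq promoter windows of 300 bases, from 250 before to 50 after a RefSeq start site, were at hand for 6 of the 9 members in the build GRCm38.p6: the 4 receptors, Rbpj and Nrarp. The windows of Rbpj and of Notch1 (chr2:26503773-26504072) lie inside the gene spans given above and not at the annotated gene starts. They were searched on both strands for TGGGAA, core letters bound by RBPJ, and for the longer GTGGGAA that contains it. TGGGAA or its reverse complement TTCCCA occurs in 25.6% of all 32851 windows in the reference table, and GTGGGAA in 6.38%. Among the members 1 gene held TGGGAA, namely Rbpj itself, and 0 held GTGGGAA. Rbpj has 2 overlapping windows, both with TGGGAA, so that 2 of the 7 member windows hold it. The earlier Rbpj window, which contains every match, and that of the target gene Nrarp are shown because the former holds matches and Nrarp, a Notch target, does not; capitals mark the matches, in Rbpj at chr5:53590096-53590395 and in Nrarp at chr2:25180508-25180807, both on the plus strand.
Rbpj: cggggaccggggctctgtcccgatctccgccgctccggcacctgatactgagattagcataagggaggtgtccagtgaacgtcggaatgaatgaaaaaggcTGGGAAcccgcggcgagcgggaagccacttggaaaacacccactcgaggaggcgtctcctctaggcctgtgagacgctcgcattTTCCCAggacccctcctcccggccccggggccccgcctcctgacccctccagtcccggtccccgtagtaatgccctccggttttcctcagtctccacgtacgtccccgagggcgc
Nrarp: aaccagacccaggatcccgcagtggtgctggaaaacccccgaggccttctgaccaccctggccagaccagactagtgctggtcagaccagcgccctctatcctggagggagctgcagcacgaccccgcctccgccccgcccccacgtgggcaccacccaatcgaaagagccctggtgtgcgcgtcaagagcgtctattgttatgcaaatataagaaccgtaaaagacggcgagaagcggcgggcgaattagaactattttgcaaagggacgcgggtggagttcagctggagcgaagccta
The Rbpj matches begin 149 bases before the start site of that window on the plus strand and 65 bases before it on the minus strand. The Nrarp window holds no capitals. A match is a run of letters and no match says only that the letters are not in this window.

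Notch1 and Notch2 were the most abundant receptors. Notch1, the receptor best known for T-lineage commitment, measured 1.95, 5.58 and 5.52 FPKM in untreated wild type, 3.94, 6.96 and 5.28 in the untreated knockout, 1.56, 3.31 and 4.40 in treated wild type, and 2.21, 3.83 and 6.52 in treated knockout. All 4 groups overlapped, and replicate 1 was the lowest library of each group. None of its differences passed the test, and that between untreated knockout and wild type was 0.32 ± 0.39 (SE; n = 3 libraries per group; limma adjusted p = 0.527).

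Notch2, a receptor known for marginal zone B cells, measured 0.868, 4.21 and 3.68 FPKM in untreated wild type, against 1.74, 1.59 and 3.31 in the untreated knockout. It was at 1.48, 2.72 and 3.09 FPKM in treated wild type and at 3.48, 2.03 and 4.26 in treated knockout. Again every group overlapped the others. The spread within groups was wide beside the differences, of which the largest between 2 groups, Romiplostim against untreated in the knockout, was 0.41 with limma adjusted p = 0.439. The library lowest for both receptors in untreated wild type, replicate 1, also had the lowest median of that group over 1276 tested genes of at least 9437 exonic bases, 2.96 against 3.25 and 3.23 in log2(FPKM + 1). In the untreated knockout it went the other way: replicate 1, the lowest for Notch1, had the highest long-gene median, 3.16 against 3.13 and 3.07. Replicate 1 of both treated groups was the lowest for Notch1, and for Notch2 in wild type alone. It had the lowest long-gene median there, 2.85 against 3.04 and 3.11 in wild type and 2.89 against 2.96 and 3.09 in knockout. Relative to the median over all tested genes, replicate 1 stayed lowest in both wild-type groups (-0.70 untreated and -0.82 treated). In the knockout it lay between the other replicates, at -0.73 untreated (others -0.70 and -0.77) and -0.58 treated (others -0.81 and -0.56). That summary was made after the values were seen, and both receptors have long transcripts; its part in their spread was not tested.

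Notch4, a receptor of endothelial cells, stood near 1 FPKM. It measured 1.47, 1.41 and 1.84 FPKM in untreated wild type, against 1.22, 0.724 and 1.49 in the untreated knockout, 1.60, 1.93 and 1.46 in treated wild type, and 1.40, 1.25 and 0.906 in treated knockout. The 2 wild-type groups lay above the treated knockout without overlap, while the untreated knockout overlapped all 3 other groups. Neither genotype difference passed the test: -0.28 ± 0.17 without the drug (limma adjusted p = 0.197) and -0.29 with it (limma adjusted p = 0.361). Endothelial markers did not move one way between untreated genotypes. Of 10 tested, 3 rose and 5 fell, beside 22.1% and 23.0% of all tested genes. Stab2 rose from a mean of 0.454 to 12.7 FPKM and Pecam1 from 9.27 to 17.4, while Esam fell from 292.6 to 81.8 and Egfl7 from 138.3 to 69.8. Cdh5 and Flt4 missed the filter, with higher means in the untreated knockout (0.613 and 1.49 against 0.0405 and 0.162 FPKM). Of 12 stem cell markers, 11 fell in the same comparison. The part of endothelial and stem cell markers in the Notch4 values was not tested.

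Notch3, a receptor of vascular smooth muscle, was low throughout and was not tested. It measured 0.293, 0.293 and 0.295 FPKM in untreated wild type, against 0.0781, 0.0580 and 0.191 in the untreated knockout. In treated mice it measured 0.160, 0.341 and 0.188 FPKM in wild type and 0.0762, 0.105 and 0.103 in knockout. The untreated wild-type libraries lay above both knockout groups, and the highest treated knockout value, 0.105, lay below the lowest treated wild-type value, 0.160. These levels correspond to 15.1 to 83.7 fragments, above the 3-fragment floor of 0.0105 to 0.0134 FPKM; such limits cover counting error only. Thus the order of the receptors by mean in untreated wild type was Notch1 (4.35 ± 2.08 FPKM, SD, n = 3), Notch2 (2.92 ± 1.80), Notch4 (1.57 ± 0.23) and Notch3 (0.294 ± 0.00095), with Notch1 and Notch2 overlapping.

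**Figure D1:**
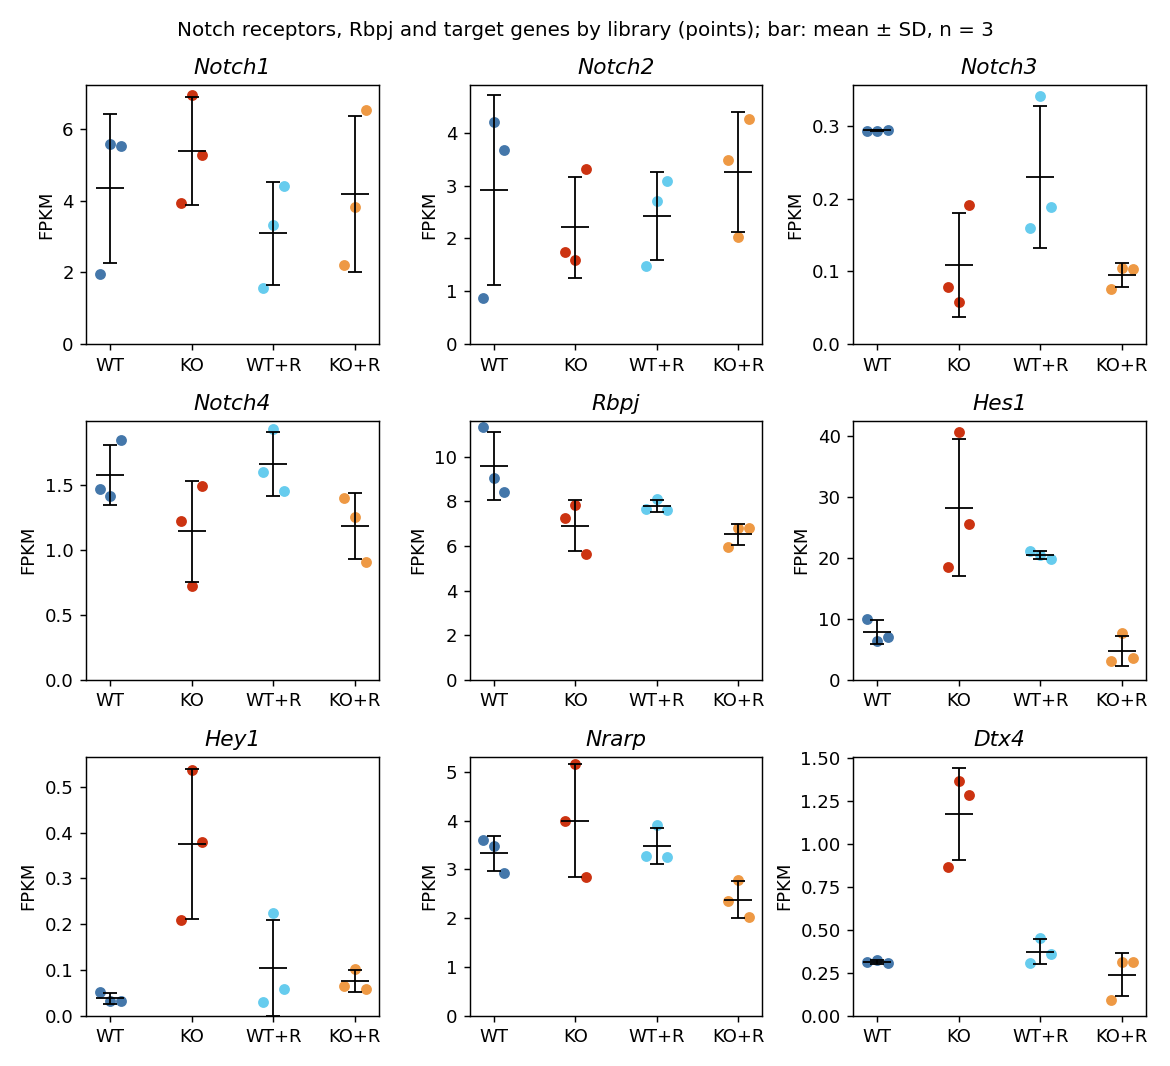
FPKM of each of the 9 members (linear axes from 0, 1 panel per gene) in the 12 libraries (points) by genotype, with R for Romiplostim; bars give the mean ± SD of 3 libraries. Hes1 is high in the untreated knockout and treated wild type and low in the other 2 groups, whereas the ranges of Notch1 and Notch2 overlap between all groups.

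Rbpj, which recruits either corepressors or the Notch coactivator complex to DNA, had a higher mean than any of the receptors in every group. It measured 11.3, 9.06 and 8.43 FPKM in untreated wild type, 7.26, 7.84 and 5.65 in the untreated knockout, 7.64, 8.09 and 7.60 in treated wild type, and 5.95, 6.79 and 6.81 in treated knockout. The untreated wild-type libraries lay above all 3 other groups without overlap, and the treated groups did not overlap each other. Rbpj fell in the untreated knockout by 0.42 ± 0.15 (SE; limma adjusted p = 0.0335), a mean 0.720 times that of wild type. The call was lost in 8 of 16 alternatives, with adjusted p from 0.0189 to 0.127 in limma. Without untreated knockout replicate 3 it was -0.30 with limma adjusted p = 0.127, and without untreated wild-type replicate 1 it was -0.31 with limma adjusted p = 0.112. In the other comparisons the differences were -0.26 (Romiplostim in wild type; limma adjusted p = 0.486), -0.07 (Romiplostim in knockout; 0.762) and -0.23 (genotype on Romiplostim; 0.407).

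Hes1, a transcriptional repressor and the classical Notch target, had the largest differences of the tested members. It measured 9.97, 6.31 and 7.06 FPKM in untreated wild type, 18.5, 40.5 and 25.6 in the untreated knockout, 21.2, 20.5 and 19.8 in treated wild type, and 3.13, 7.63 and 3.52 in treated knockout. The untreated knockout was higher than untreated wild type in 3 of 3 libraries, the treated knockout lower than treated wild type in 3 of 3, and neither pair overlapped. Group means were 7.78 ± 1.94 FPKM (SD, n = 3) in untreated wild type, 28.2 ± 11.2 in the untreated knockout, 20.5 ± 0.665 in treated wild type and 4.76 ± 2.49 in treated knockout. Untreated knockout and treated wild type overlapped each other, as did untreated wild type and treated knockout.

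Hes1 rose by 1.69 ± 0.30 in the untreated knockout (limma adjusted p = 0.00102), a mean 3.62 times that of wild type. On Romiplostim it fell by 2.35 ± 0.30 in the knockout (limma adjusted p = 0.000316), to 0.169 times the untreated mean. With both genotypes treated it was lower in the knockout, with a difference of -1.98 ± 0.30 (limma adjusted p = 0.0105), a mean 0.232 times that of wild type. In wild type Romiplostim gave a difference of 1.31 ± 0.30, a mean 2.63 times higher and with no overlap, which missed the threshold (limma adjusted p = 0.0551). These comparisons share libraries, so their values are not independent of each other.

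The drug's effect thus differed between genotypes, with an interaction of -3.67 ± 0.43 on the log2 scale (limma adjusted p = 0.000979), where a negative value means a lower effect in the knockout. The interaction passed in 21 of 21 alternatives, with adjusted p up to 0.0216 in limma. The untreated and drug calls in knockout passed in 16 of 16 alternatives each. The genotype call on Romiplostim was lost in 4 of 16, with the sex covariate (-1.88, limma adjusted p = 0.118) and without treated wild-type replicate 1, 2 or 3 (limma adjusted p = 0.0545, 0.0555 and 0.0517). The wild-type drug difference passed in 5 of 17 alternatives. With replicate number as a block in a fit of the wild-type libraries alone, it was 1.31 ± 0.13 (limma adjusted p = 0.0182). Whether these libraries are paired by number is uncertain, so that value rests on an assumption.

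The B-lineage and macrophage sums and Hes1 moved the same way in the knockout. In untreated knockout, Hes1 and the B-lineage and macrophage sums were all above those of untreated wild type, and in treated knockout all were below those of untreated knockout. In treated wild type Hes1 was 19.8 to 21.2 FPKM while the B-lineage and macrophage sums were the lowest of the 4 groups. The sum of 12 T and NK cell markers, by contrast, was higher there (292 to 332.3 FPKM) than in untreated wild type (139.9 to 183.6), without overlap, as Hes1 was. The sum was highest in the untreated knockout (412 to 688.7 FPKM) and 180.1 to 433.2 in the treated knockout. Most of the wild-type sum was 1 gene, Nkg7, at 122.5 to 166.6 FPKM in untreated and 255.6 to 294.6 in treated wild type. Between treated genotypes 2 of the 10 tested T and NK cell markers were called higher in the knockout and 0 lower. Of all tested genes 0.632% were called higher there and 0.741% lower, and Hes1 was lower. With Romiplostim in wild type 0 of the 10 tested T and NK cell markers were called by limma, where 1.84% of all tested genes were. An unadjusted limma p under 0.05 was reached by 5 of the 10, beside 1708 of 12823 tested genes. Neutrophil and monocyte sums overlapped between treated (1618 to 6387 FPKM) and untreated wild type (1387 to 3640). Cell cycle sums did too (1378 to 1610 against 1147 to 1518). Of 12 cell cycle genes, 2 were called higher with the drug and 0 lower (0.866% and 0.975% of all tested genes). Both sums were highest in the untreated knockout. The part of these markers in the Hes1 values was not tested. Untreated knockout replicate 2 had the highest Hes1 level (40.5 FPKM) and the highest B-lineage and macrophage sums (4362 and 2858 FPKM); without it the Hes1 difference between untreated genotypes was 1.40 (limma adjusted p = 0.00442) and the interaction -3.38 (limma adjusted p = 0.00259). Untreated knockout replicate 3 led the sums of neutrophil and monocyte, erythroid, T and NK cell and stromal markers, and treated knockout replicate 2 led the B-lineage and macrophage sums of its group. The former had the lowest macrophage sum of its group (986.1 FPKM). The latter had the lowest erythroid sum of its group (553.7) and the highest stem cell sum (1768), so these 2 libraries did not lead every list. Without both of these, the Hes1 interaction was -4.03 (limma adjusted p = 0.000424) and the wild-type drug difference 1.31 (limma adjusted p = 0.0234).

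**Figure D2:**
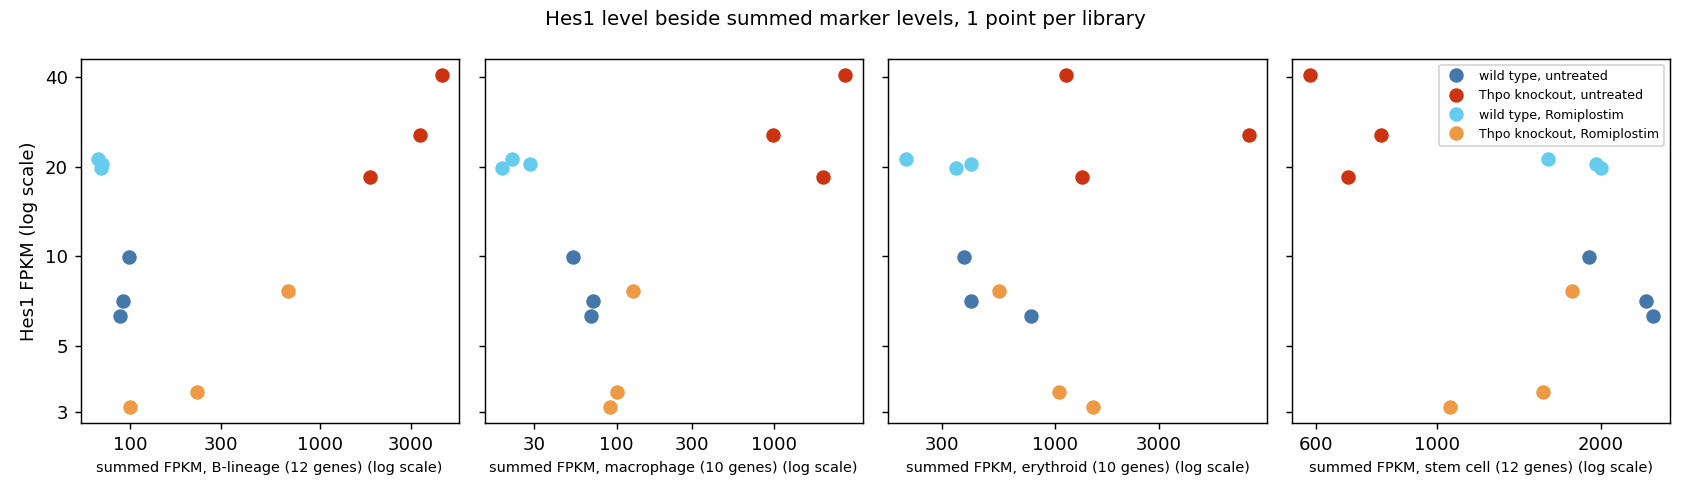
Hes1 level (FPKM, log scale) against the summed FPKM of B-lineage, macrophage, erythroid and stem cell markers (log scales), 1 point per library and coloured by group. Treated wild-type libraries combine Hes1 near 20 FPKM with the lowest B-lineage and macrophage sums.

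Nrarp, an ankyrin-repeat protein that Notch induces and that dampens Notch signalling, varied less. It measured 3.60, 3.48 and 2.93 FPKM in untreated wild type, 3.99, 5.16 and 2.84 in the untreated knockout, 3.28, 3.91 and 3.25 in treated wild type, and 2.35, 2.78 and 2.02 in treated knockout. The treated knockout lay below the other 3 groups without overlap, and those 3 overlapped. Nrarp fell by 0.54 ± 0.18 with Romiplostim in the knockout (limma adjusted p = 0.0379), to 0.596 times the untreated mean. That call was lost in 9 of 16 alternatives (in 1 more, at 5 FPKM, Nrarp was not tested), with adjusted p from 0.00666 to 0.265 in limma. With the sex covariate it was -0.53 (limma adjusted p = 0.265), and leaving out untreated knockout replicate 1 or 2 or treated knockout replicate 1 or 3 gave limma adjusted p = 0.0954, 0.148, 0.0641 and 0.128. The interaction was -0.59 ± 0.25 (limma adjusted p = 0.129).

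Dtx4, a ubiquitin ligase of the Deltex family, was high in the untreated knockout, as Hes1 was, and not in treated wild type. It measured 0.310, 0.326 and 0.304 FPKM in untreated wild type, 0.866, 1.37 and 1.28 in the untreated knockout, 0.309, 0.451 and 0.357 in treated wild type, and 0.0938, 0.312 and 0.310 in treated knockout. Only the untreated knockout stood apart, above the other 3 groups without overlap, at a mean 3.74 times that of untreated wild type. Dtx4 missed the filter with 2 libraries at 1 FPKM or more, so it was not tested with the others. In the fit without a filter the difference was 0.72 ± 0.10 between untreated genotypes (limma adjusted p = 0.000798) and -0.81 with Romiplostim in the knockout (limma adjusted p = 0.00104), and the interaction was -0.87 (limma adjusted p = 0.0114).

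Hey1, a repressor related to Hes1, was the least abundant target. It measured 0.0516, 0.0310 and 0.0312 FPKM in untreated wild type, 0.210, 0.537 and 0.380 in the untreated knockout, 0.0299, 0.224 and 0.0584 in treated wild type, and 0.0655, 0.102 and 0.0578 in treated knockout. The untreated knockout lay above untreated wild type and treated knockout, and overlapped treated wild type through that group's replicate 2. Its values stand for 3.0 to 56.2 fragments, the lowest of them at the 3-fragment floor of 0.0259 to 0.0333 FPKM, so no fold is given. In the fit without a filter the untreated genotype difference was 0.40 ± 0.08 (limma adjusted p = 0.0056), that with Romiplostim in the knockout -0.35 (limma adjusted p = 0.0192), and the interaction -0.43 (limma adjusted p = 0.0573). Notch3 in that fit fell by 0.22 ± 0.06 in the untreated knockout (limma adjusted p = 0.0161).

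**Figure D3:**
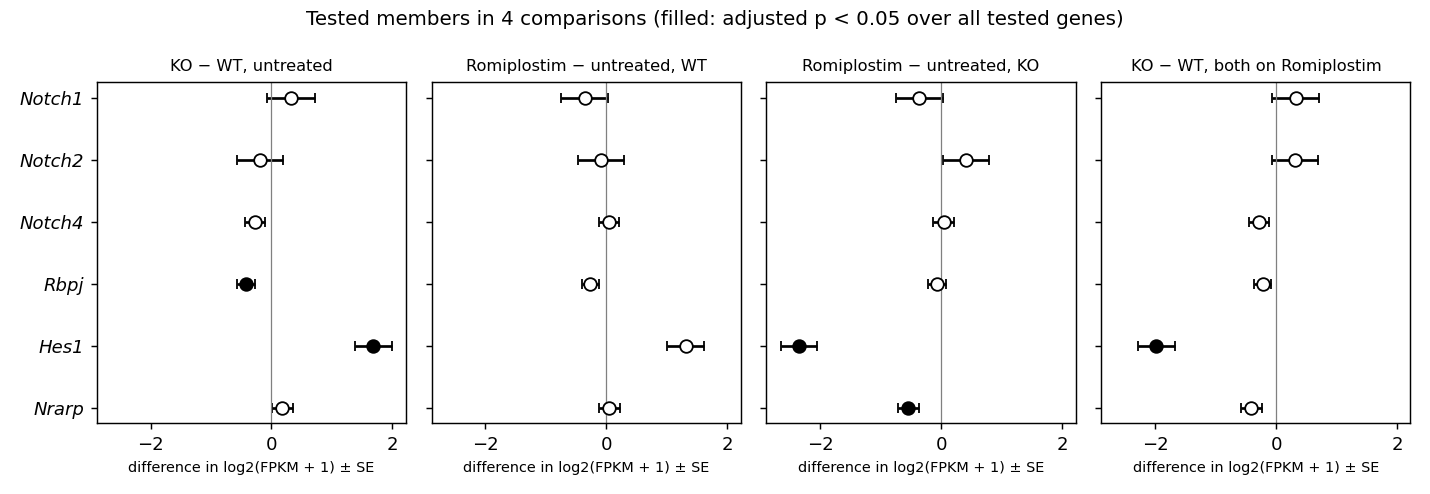
Difference in log2(FPKM + 1) ± SE of the 6 tested members in 4 comparisons; filled points have an adjusted p under 0.05 over all tested genes. Hes1 is the member called in 3 of the 4 panels, Rbpj in the untreated genotype panel and Nrarp in the knockout drug panel.

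The members' calls are given beside the share of all tested genes called. Of the 6 tested members, 1 rose and 1 fell between untreated genotypes, where 45.1% of all tested genes were called (22.1% higher and 23.0% lower). With Romiplostim in wild type 0 were called, where 1.84% of genes were (0.866% higher and 0.975% lower). For 1 member, Hes1, the unadjusted limma p was under 0.05, as it was for 1708 of 12823 tested genes. In the wild-type libraries alone with the replicate block, whose pairing is uncertain, 864 genes were called, with Hes1 the 1 member among them. With Romiplostim in the knockout 2 of 6 fell and 0 rose, where 29.6% of genes were called (10.7% higher and 18.9% lower). That split depended on scaling, from 1377 higher and 2420 lower to 2490 and 1746 with quantile normalization and 1816 and 1999 with median-of-ratios scaling. With quantile normalization the median over all tested genes went from -0.09 to 0.08 there, and the difference of Rbpj, not called in either, from -0.07 to 0.15, while Hes1 and Nrarp stayed negative. The list was chosen knowing such results, so nothing is read from these shares.

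With both genotypes on Romiplostim 1 of 6 was lower in the knockout, where 1.37% of genes were called (0.632% higher and 0.741% lower). For the interaction 1 of 6 was lower, where 15.6% of genes were called (5.53% higher and 10.0% lower; 709 and 1287 genes, against 1425 and 1128 with quantile normalization). The members' median differences were -0.01, -0.02, -0.21, -0.26 and -0.00 in the 5 comparisons in the order given, and those of all tested genes -0.03, -0.04, -0.09, -0.07 and -0.05.

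The rest of the pathway was described by lists of 69 other genes, of which 54 were tested. Between untreated genotypes 12 rose and 11 fell, beside 45.1% of all tested genes called. With Romiplostim in the knockout 3 rose and 12 fell (29.6% of all genes called), and for the interaction 1 was higher and 7 were lower (15.6% of all genes called). These shares of the 54 genes lie near the background in all 3 comparisons. Among the genes called between untreated genotypes, Dtx1, Heyl and Tspan15 passed the filter only through knockout libraries, and Dlk1 only through wild-type ones. With Romiplostim in wild type, and between genotypes on Romiplostim, 0 of 54 were called by limma (1.84% and 1.37% of all tested genes). An unadjusted limma p under 0.05 was reached by 3 and 11 of the 54, beside 1708 and 2539 of 12823 tested genes. The wild-type fit with the replicate block called 3 of the 54, and 864 of all tested genes.

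Ligands were mostly low, and 2 of 8 were tested. Dlk1, a non-canonical ligand, fell by 2.0 ± 0.71 in the untreated knockout (limma adjusted p = 0.0375), from 26.0, 0.628 and 3.71 FPKM to 0.361, 0.603 and 0.468. Only wild-type libraries reached 1 FPKM, so the filter favoured the call of Dlk1, which is given as a description. The wild-type values were led by replicate 1, without which the difference was -0.91 and not called (limma adjusted p = 0.0626). Dlk1 was called in 7 of 16 alternatives, and also lost its call without wild-type replicate 3 or any single untreated knockout replicate. Jag2 fell by 0.46 ± 0.17 (limma adjusted p = 0.0439), called in 7 of 16 alternatives. Dll1, Dll3, Dll4, Jag1, Dlk2 and Dner did not reach the filter, and the highest value among them was 1.37 FPKM, for Dll4 in untreated knockout replicate 3.

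Of the enzymes that modify or cut the receptor, some rose and some fell. Mfng, a Fringe glycosyltransferase that tunes ligand preference, fell by 1.19 ± 0.25 in the untreated knockout (limma adjusted p = 0.00268), from 223 to 234 FPKM in wild type to 91.6 to 105 in knockout. Of 10 cleavage genes, 4 rose and 2 fell there, where 22.1% of all tested genes rose and 23.0% fell. The ADAM protease gene Adam17 rose by 0.85 ± 0.12 (limma adjusted p = 0.000188). Both Psenen and Aph1c, gamma-secretase subunits, fell, Psenen by 0.85 ± 0.12 (limma adjusted p = 0.00021) and Aph1c by 1.06 ± 0.18 (limma adjusted p = 0.000802).

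With Romiplostim in the knockout 2 cleavage genes rose and 3 fell, beside 10.7% and 18.9% of all tested genes. Adam17 fell by 0.51 ± 0.12 (limma adjusted p = 0.0082), while Psenen rose by 0.60 (limma adjusted p = 0.00386). Both calls were lost with the sex covariate. Rfng, another Fringe gene, fell by 0.56 (limma adjusted p = 0.0219), a call lost in 5 of 16 alternatives.

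Of 14 tested nuclear cofactors, 1 rose and 2 fell in the untreated knockout, beside 22.1% and 23.0% of all tested genes, with a rise of 0.44 ± 0.11 for the corepressor gene Ctbp1 (limma adjusted p = 0.00754). Snw1, a splicing factor and coregulator, fell by 0.61 (limma adjusted p = 0.00575). The Mastermind gene Maml2 fell by 0.62 (limma adjusted p = 0.0267), called in 9 of 16 alternatives. Of 14 tested turnover genes, 3 rose and 2 fell there, among them Dtx1, a Deltex relative of Dtx4, which rose by 2.06 ± 0.40 (limma adjusted p = 0.00156). Its values were 0.0192 to 0.0319 FPKM in untreated wild type, against 2.08, 1.48 and 9.14 in the untreated knockout. Only the 3 untreated knockout libraries reached 1 FPKM, so Dtx1 passed the filter through the group where it was high. The filter thus favoured its calls, and Dtx1 is given as a description. It fell by 1.72 with Romiplostim in the knockout (limma adjusted p = 0.00826), and so did Numb, an adaptor that removes Notch from the membrane, by 0.69 (limma adjusted p = 0.00422). Both of these drug calls were lost with the sex covariate, and that of Dtx1 also with only the groups compared; at 5 FPKM Dtx1 was not tested.

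Among 9 tested genes of a list of other Notch targets, 4 rose and 2 fell in the untreated knockout (22.1% and 23.0% of all tested genes). With Romiplostim in the knockout 5 fell and 0 rose (18.9% and 10.7% of all tested genes). Heyl, a relative of Hey1, measured 0.200, 0.222 and 0.0559 FPKM in untreated wild type, 4.77, 10.6 and 4.67 in the untreated knockout, 0, 0.0572 and 0 in treated wild type, and 0.0391, 1.48 and 0.242 in treated knockout. The untreated knockout stood above all other libraries. Heyl reached 1 FPKM only there and in treated knockout replicate 2, so the filter favoured its calls and it is given as a description. Heyl rose by 2.64 ± 0.32 in the untreated knockout (limma adjusted p = 8.67e-05) and fell by 2.30 ± 0.32 with Romiplostim in the knockout (limma adjusted p = 0.000507).

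Id3, an inhibitor of E proteins expressed in many lymphoid and myeloid cells, was also highest in the untreated knockout. It measured 5.99, 2.82 and 2.92 FPKM in untreated wild type, 57.0, 166.5 and 141.6 in the untreated knockout, 6.73, 6.58 and 7.37 in treated wild type, and 2.55, 19.9 and 7.63 in treated knockout. Id3 rose by 4.56 ± 0.55 in the untreated knockout (limma adjusted p = 7.87e-05) and fell by 3.69 ± 0.55 with the drug in the knockout (limma adjusted p = 0.000729). Tcf7, a T-lineage transcription factor, rose by 3.39 ± 0.37 (limma adjusted p = 4.5e-05) and fell by 2.13 (limma adjusted p = 0.00189), and the tetraspanin gene Tspan15 rose by 1.96 ± 0.24 (limma adjusted p = 9.51e-05) and fell by 1.49 (limma adjusted p = 0.00126). The drug call of Tcf7 was lost with the sex covariate. Tspan15, like Heyl, reached 1 FPKM only in the untreated knockout and in treated knockout replicate 2 (1.07 FPKM). The filter thus favoured the calls of Tspan15 too. The 2 that fell between untreated genotypes were Gata3 by 1.20 (limma adjusted p = 0.000836) and Gata2 by 0.80 (limma adjusted p = 0.00886), named after their values were seen; both are also expressed in stem cells. Between untreated genotypes the B-lineage, macrophage and T and NK cell sums given above were higher where Heyl, Id3, Tcf7 and Tspan15 were, and their part was not tested. Tcf7 was highest in untreated knockout replicate 3 (20.05 FPKM), the library with the highest T and NK cell sum, 688.7 FPKM.

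**Figure D4:**
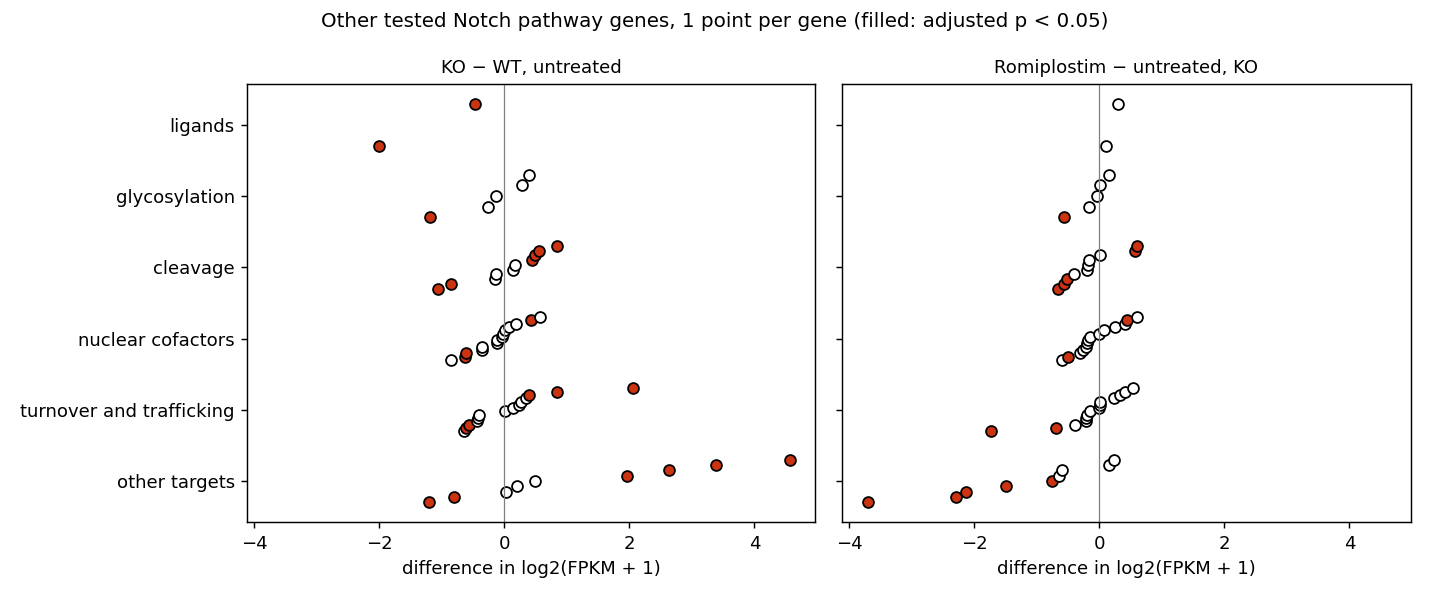
Difference in log2(FPKM + 1) of each tested gene of the Notch lists, grouped by role, in the comparison of untreated genotypes and in that of Romiplostim within the knockout; filled points have an adjusted p under 0.05. Other targets such as Id3, Tcf7 and Heyl lie farthest from 0, and the cleavage genes lie on both sides of it.

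Across the 12 libraries, the genes whose log2(FPKM + 1) followed a member most closely, among named genes, are given by Pearson r as a description; the libraries share group, run and cell makeup. For Hes1 they were Gngt2 (r = 0.937), Nedd4l (0.917) and Tjp3 (0.912), and for Nrarp Car7 (0.899), Msantd2 (0.891) and Ilvbl (0.868). Those of Rbpj were Kif13b (0.941), Por (0.936) and Glul (0.934). Notch2 was followed by Elmsan1 (0.982), Med12 (0.955) and Tsc1 (0.954), Notch1 by Med13 (0.915), Zmiz1 (0.907) and Mfap1a (0.90), and Notch4 by Zfp511 (0.886), Anapc11 (0.857) and F8a (0.848). Between members, Hes1 and Nrarp had r = 0.764 over these 12 libraries.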

How the data were processed

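RNA was amplified with a SMARTer kit, which does not mark strand, and sequenced as read pairs, per the labels' protocols. The authors deposited FPKM values in 1 table, 1 column per library; TopHat2, Cufflinks 2.2.1 and the build mm10 are named in the submitters' processing notes. The annotation release and filters are not given in the sources used here. Of 35275 genes, 34490 were matched by identifier to GENCODE M21. FPKM are not counts, so no count test was used: limma 3.58.1 (R 4.3.3) was fitted to log2(FPKM + 1) of all 12 libraries with an intensity trend, for genes of at least 1 FPKM in at least 3 libraries, with two-sided tests and Benjamini-Hochberg adjustment over 12823 genes (adjusted p under 0.05). The script was tested on simulated data.

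The members, gene lists and tests were chosen with earlier results of these data known. Named were all members and ligands, at most 4 called genes of each other Notch list per comparison by smallest p, and the 3 named genes most correlated with each tested member, leaving out unnamed gene models, pseudogenes and receptor segments. Replicate numbers come from the titles. Deviations from group means of same-numbered libraries correlated at 0.403, 0.123 and 0.383 between the wild-type groups, over 0.1 in each pair, and in 6 of 18 pairs over all groups. Differently numbered libraries reached up to 0.324, and untreated wild-type replicate 2 correlated at 0.123 with treated replicate 3 too. Y-linked means differed within the pairs of replicate 1 (22.5 untreated, 0.0221 FPKM treated) and replicate 2 (0.137 and 18.5). Whether the numbers pair the wild-type groups is thus uncertain. A blocked fit of those 6 libraries was added after the data were seen, as an alternative only. Alternatives changed the pseudocount, filter, scaling, trend, libraries and covariates. Depth was estimated at a median of 30.3 M fragments. A gene that the naming rule takes is not reported here.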

Additional observations from a re-analysis of the deposited data

Results flagged for a closer look

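For the 8 genes named here the effect of Romiplostim differed between genotypes by the interaction test, the effect in the knockout minus that in wild type on the log2 scale. Among the members this was Hes1, at -3.67, higher with the drug in 3 of 3 wild-type libraries and lower in 3 of 3 knockout libraries. Of the other Notch targets, Id3 was at -4.44 (limma adjusted p = 0.00505), Tcf7 at -2.93 (limma adjusted p = 0.00585), Heyl at -2.11 (limma adjusted p = 0.0121) and Tspan15 at -1.31 (limma adjusted p = 0.0263). The cleavage gene Adam17 was at -0.65 (limma adjusted p = 0.0239), and the corepressor gene Ctbp1 was at -0.52 (limma adjusted p = 0.0467). Nedd4, a ubiquitin ligase, was at 0.97 (limma adjusted p = 0.0176), the 1 gene of the 8 with a positive difference. Heyl and Tspan15 passed the filter only through knockout libraries, chiefly the untreated ones where they were high, which favoured their calls. With the sex covariate, Hes1 passed and the other 7 did not. That covariate draws on the wild-type groups alone and cannot separate sex from the drug in the knockout, so nothing is concluded from it. Over the 21 alternatives, Ctbp1 was called in 5, Tspan15 in 11, Adam17 in 15, Heyl in 18, and Id3, Tcf7 and Nedd4 in 20 each; Ctbp1 was lost under both other scalings, and Tspan15 without any single treated wild-type replicate.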

How the results depend on the processing

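No called value changed sign in the alternatives run. Members called between untreated genotypes numbered 5 with no filter and 1 with median-of-ratios scaling, only the groups compared, the sex covariate or without 2 libraries here called marker-rich (replicate 3 of the untreated knockout and replicate 2 of the treated one), and 1 to 2 leaving out 1 replicate. The marker-rich libraries led some lists of markers of other cells and not all. With Romiplostim in wild type, 1 was called with quantile or median-of-ratios scaling, only the groups compared, with or without the replicate block, or without the marker-rich libraries. With Romiplostim in the knockout 1 was called at 5 FPKM, with quantile or median-of-ratios scaling, only the groups compared or the sex covariate, and 1 to 2 leaving out 1 replicate. Between treated genotypes 0 were called with the sex covariate and 0 to 1 leaving out 1 replicate. For the interaction 2 were called with no filter or without the marker-rich libraries, and 1 to 2 leaving out 1 replicate.

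Of the other Notch genes, Romiplostim in wild type gave 1 with only the groups compared or without the marker-rich libraries, and 3 with the replicate block in wild type alone. Romiplostim in the knockout gave 7 with only the groups compared and 3 with the sex covariate. The treated genotypes gave 1 with pseudocount 0.1 or quantile scaling, 7 without the marker-rich libraries, and 0 to 7 leaving out 1 replicate, the 7 without treated knockout replicate 2. The interaction gave 5 with pseudocount 0.1, 0 with the sex covariate, 14 without the marker-rich libraries and 4 to 12 leaving out 1 replicate.

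Over all genes, Romiplostim in wild type gave 122 at 5 FPKM, 628 with only the groups compared, 864 with the replicate block in wild type alone, 438 without the marker-rich libraries and 65 to 156 leaving out 1 replicate. In the knockout it gave 2021 with only the groups compared, 770 with the sex covariate and 2368 to 4308 leaving out 1 replicate. The treated genotypes gave 326 with pseudocount 0.1, 57 with no filter or only the groups compared, 273 with quantile scaling, 28 with the sex covariate, 1712 without the marker-rich libraries and 31 to 1559 leaving out 1 replicate. The interaction gave 261 with the sex covariate and 1088 to 2687 leaving out 1 replicate. The cause of these moves was not tested. With the replicate block over all 12 libraries, Hes1 between untreated genotypes was 1.69 (limma adjusted p = 0.00144) and 2 members were called; no member's call changed there. A fit of only the groups compared was not run for the interaction. Depth limits Hey1, at 3.0 to 56.2 fragments.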
